A study of Mus musculus with 4 samples.

Results

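The Fc gamma receptors Fcgr1, Fcgr2b, Fcgr3 and Fcgr4 and the Fc receptor-like genes Fcrl1, Fcrl5 and Fcrla were followed in mouse spleen cells. They were taken by gene symbol from a deposited table of FPKM values, a measure of expression scaled by transcript length and by the number of sequenced fragments. All 7 genes were found, on 8 of 14226 rows and among 11278 symbols, since Fcrl1 has 2 rows. Whole-spleen cell suspensions of C57BL/6N mice were compared in 2 groups, wild type (2 libraries) and mice with the genotype vcS5 +/T (2 libraries). The title of the series names an activating STAT5 mutation and peripheral T cell lymphoma. The labels describe the vcS5 mice as transgenic. The column headers of the table call them line1. The promoter of the transgene and the age of the mice are not given in the sources used here. The comparison asks how Fc receptor expression in the spleen differs in mice with this transgene.

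Fc gamma receptors bind the constant part of IgG and tie antibody to the behaviour of cells. Fcgr1, Fcgr3 and Fcgr4 are activating receptors of macrophages, monocytes, neutrophils or natural killer cells, and they signal through the shared gamma chain encoded by Fcer1g. Fcgr2b carries an inhibitory motif instead, recruits the lipid phosphatase encoded by Inpp5d, and is the Fc gamma receptor of B cells, where it restrains the B cell receptor. The Fc receptor-like genes are relatives expressed mostly in B cells. Fcrl1 and Fcrl5 encode surface receptors that tune B cell receptor signalling, Fcrl5 mainly in marginal zone and innate-like B cells, while Fcrla encodes a protein kept inside the cell.

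Median FPKM over all rows lay between 12.2 and 12.6 in the 4 libraries. Mean Stat5a was 15.4 FPKM in the wild-type libraries against 114 in the vcS5 libraries. Markers of B cells, T cells and macrophages were all present. Neutrophil markers stood apart in 1 library, with a summed level over 13 genes of 6503 FPKM in wild type replicate 1 against 1972 in wild type replicate 2, 1062 in vcS5 replicate 1 and 1024 in vcS5 replicate 2. The design text calls the replicates biological.

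All 3 Fc receptor-like genes were lower in vcS5, while no Fc gamma receptor passed the test. Differences were tested with limma on log2(FPKM + 1) across all rows, and a row was called at a Benjamini-Hochberg adjusted p under 0.05. By that rule 3 of 7 genes were called, 3 lower and 0 higher, where 8.72% of all rows were called, 4.13% lower and 4.59% higher. Of the 4 Fc gamma receptors 0 were called by limma. The authors' deposited table gives 2 of them a q below 0.05, where 11.5% of all rows had such a q. The median log2 change was -0.76 over the 7 genes and 0.00 over all rows. Both vcS5 libraries lay below both wild-type libraries for 5 of the 7 genes, an arrangement found in 27.5% of all rows. Every one of the 3 calls rests on all 4 libraries: 0 genes were called by limma when any one library was left out. Every gene tested was then still lower in vcS5. These were 7 genes with either vcS5 library left out. With either wild-type library left out they were 6, since Fcgr1 dropped under the filter.

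**Figure D1:**
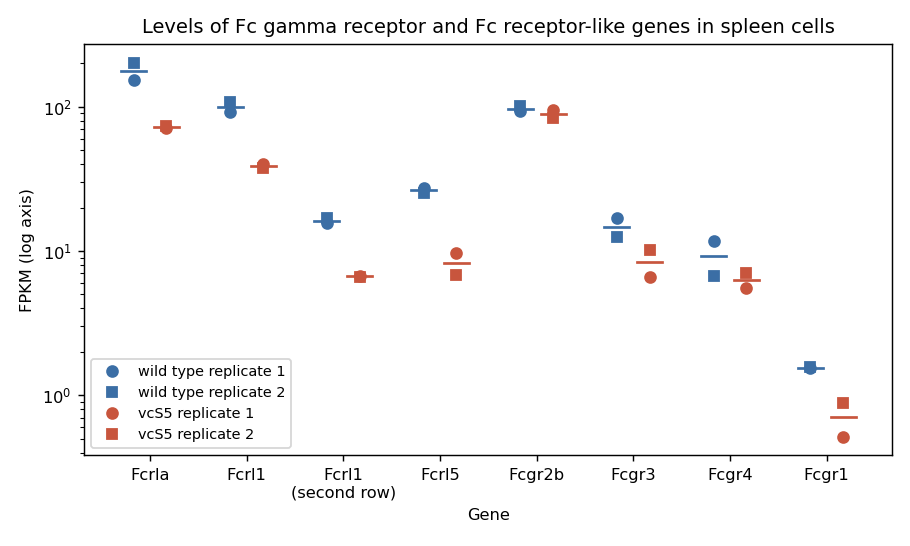
FPKM on a log axis for each gene, with 1 point per library (circles replicate 1, squares replicate 2) and a bar at the group mean; blue is wild type and red is vcS5. The Fc receptor-like genes separate by group, Fcgr2b lies between 83.2 and 101 FPKM in all 4 libraries, and Fcgr1 is at or below 1.57 FPKM in all 4.

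Among the activating receptors, Fcgr1, the high-affinity IgG receptor (mm10 chromosome 3, 96282909 to 96293969, minus strand), was the least abundant. It had 1.54 and 1.57 FPKM in the wild-type libraries, against 0.516 and 0.887 in vcS5. Both vcS5 libraries were below both wild-type libraries, but at these levels the log2(FPKM + 1) scale understates a change. Since both vcS5 values are under 1 FPKM, Fcgr1 passed the filter at a mean of 1 FPKM only through its wild-type values. Its lower level in vcS5 is therefore a description and no support for a change. The mean was 1.56 ± 0.0232 FPKM in the wild-type libraries, against 0.702 ± 0.262 in vcS5 (SD, n = 2 each), with a log2 change of -0.60 (SE 0.228, limma adjusted p = 0.188). In the authors' deposited table its q was 0.0435, with a log2 fold change of -1.15 on plain FPKM.

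Fcgr3, a low-affinity receptor (chromosome 1, 171051174 to 171064935, minus strand), had 16.9 and 12.6 FPKM in the wild-type libraries, against 6.62 and 10.2 in vcS5. The groups did not overlap, yet the gap between them was smaller than the spread within either. Its log2 change was -0.76 (SE 0.249, limma adjusted p = 0.141), and its q in the authors' deposited table was 0.0188. With 1 library left out the log2 change was -0.56 (wild type replicate 1), -0.95 (wild type replicate 2), -0.48 (vcS5 replicate 1) or -1.03 (vcS5 replicate 2).

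Fcgr4, a receptor of intermediate affinity (chromosome 1, 171018920 to 171029761, plus strand), had 11.7 and 6.75 FPKM in the wild-type libraries, against 5.56 and 7.04 in vcS5. The groups overlapped, with only wild type replicate 1 apart, the library in which neutrophil markers were also highest. The log2 change was -0.45 (SE 0.278, limma adjusted p = 0.389). It was -0.09 without wild type replicate 1 and -0.81 without wild type replicate 2. The part of neutrophils in the Fcgr4 value was not tested.

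Fcgr2b, the inhibitory receptor (chromosome 1, 170959703 to 170976643, minus strand), had 94.1 and 101 FPKM in the wild-type libraries, against 95.1 and 83.2 in vcS5. The vcS5 values straddled the lower wild-type value. Means were 97.4 ± 4.62 and 89.1 ± 8.46 FPKM (SD, n = 2 each), and the log2 change was -0.13 with a 95% interval of -0.50 to 0.24 (SE 0.146, limma adjusted p = 0.662). The interval reaches no lower than -0.50, while the median log2 change of 15 B cell markers was -1.38.

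Fcgr2b and Fcgr3 are close paralogs, and part of their coding sequence is the same, which bears on how 50-base reads can be assigned. The longest identical stretch of the coding sequences is 129 bases. It runs over exons 3 and 4 of both genes, at positions 278 to 406 of the 1020 coding bases of Fcgr2b and 263 to 391 of the 801 coding bases of Fcgr3 in GENCODE vM21. On the minus strand of mm10 the exon 3 part lies at chr1:170967980-170968081 in Fcgr2b and chr1:171057691-171057792 in Fcgr3. The sequence is shown because a read from inside it fits both genes equally, and capitals mark the 27 bases that lie in exon 4.
Fcgr2b and Fcgr3: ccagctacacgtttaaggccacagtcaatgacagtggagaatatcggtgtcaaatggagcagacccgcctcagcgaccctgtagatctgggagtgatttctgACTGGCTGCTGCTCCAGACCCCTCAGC

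Of the distinct 50-base words in the coding transcripts of Fcgr3, untranslated parts included, 166 of 1627 (10.2%) also occur in Fcgr2b. That is 4.48% of the 3708 words of Fcgr2b. Within the longest coding sequences alone, 166 of 752 words of Fcgr3 (22.1%) and 166 of 971 of Fcgr2b (17.1%) are shared. In all, Fcgr2b shares 10.7% of its words with other annotated genes. Fcgr1, Fcgr4, Fcrl1, Fcrl5 and Fcrla share 0 of theirs. Since Fcgr2b was the more abundant of the pair in every library, the separate Fcgr3 value is the more uncertain one. With the FPKM of both genes added, the log2 change was -0.20 (SE 0.137, limma adjusted p = 0.439). Fcgr2b makes up most of that sum, so the sum cannot show whether Fcgr3 changed.

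Within each library the activating receptors were low beside Fcgr2b. The ratio of Fcgr3 to Fcgr2b was 0.179 and 0.125 in the wild-type libraries, against 0.0696 and 0.122 in vcS5, so that wild type replicate 2 and vcS5 replicate 2 were nearly alike. For Fcgr4 to Fcgr2b the ratio was 0.125 and 0.0671 in the wild-type libraries, against 0.0584 and 0.0847 in vcS5, and the groups overlapped. Fcgr1 to Fcgr2b gave 0.0164 and 0.0156 against 0.00543 and 0.0107. The sum of the 3 activating genes over Fcgr2b was 0.264 ± 0.0792 in wild type and 0.176 ± 0.0596 in vcS5 (SD, n = 2 each), with overlapping groups. These ratios, and those to marker genes given further on, are descriptions and were not tested.

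Fcrl1 (chromosome 3, 87376083 to 87393482, plus strand) had 92.3 and 108 FPKM in the wild-type libraries, against 40.1 and 37.6 in vcS5. The groups lay far apart compared with the spread inside them. The mean was 2.58-fold lower in vcS5, with a log2 change of -1.34 (SE 0.148, limma adjusted p = 0.0122). With 1 library left out, the limma adjusted p was 0.0606 (wild type replicate 1), 0.0701 (wild type replicate 2), 0.0763 (vcS5 replicate 1) or 0.108 (vcS5 replicate 2). A second row carries the same symbol, identifier and locus. It had 15.6 and 16.9 FPKM in the wild-type libraries, against 6.73 and 6.64 in vcS5, a log2 change of -1.16 (SE 0.138, limma adjusted p = 0.014), and a q of 0.0887 in the authors' deposited table. With both rows added the log2 change of Fcrl1 was -1.33 (limma adjusted p = 0.0118). The sources used here do not say what separates the 2 rows.

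Fcrl5 (chromosome 3, 87435785 to 87468148, plus strand) had 27.4 and 25.5 FPKM in the wild-type libraries, against 9.70 and 6.83 in vcS5. It fell most of the 7 genes by ratio of means, 3.20-fold, from 26.4 ± 1.35 to 8.27 ± 2.03 FPKM (SD, n = 2 each). The log2 change was -1.58 (SE 0.193, limma adjusted p = 0.0151). Its log2 change was -1.36 without vcS5 replicate 2 and -1.81 without vcS5 replicate 1, with adjusted p-values by limma of 0.0929 and 0.0529. Without wild type replicate 1 the adjusted p was 0.0879 and without wild type replicate 2 it was 0.0762.

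Fcrla (chromosome 1, 170917537 to 170927591, minus strand) had 154 and 203 FPKM in the wild-type libraries, against 70.9 and 74.2 in vcS5. It was the most abundant of the 7 genes in wild type. In vcS5 both libraries were below the lower wild-type value, and the mean was 2.46-fold lower (log2 change -1.27, SE 0.18, limma adjusted p = 0.0205). Leaving out 1 library gave a limma adjusted p of 0.0606 (wild type replicate 1), 0.0834 (wild type replicate 2), 0.112 (vcS5 replicate 1) or 0.129 (vcS5 replicate 2). In the authors' deposited table Fcrla, Fcrl5 and the first row of Fcrl1 each had a q of 0.000995, and 5 of the 7 genes had a q under 0.05, where 6.14% of all rows were lower at that q.

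**Figure D2:**
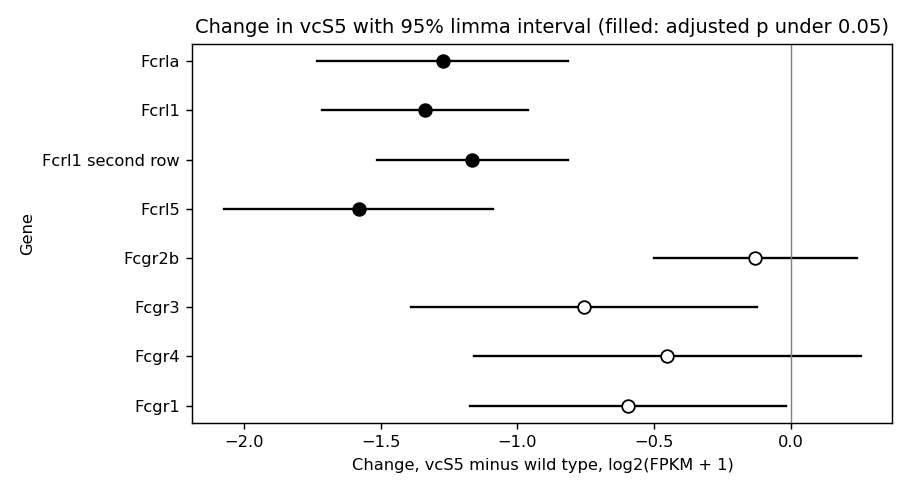
Change of each gene in vcS5 against wild type on the log2(FPKM + 1) scale, with the 95% interval from limma; filled points had an adjusted p under 0.05. The Fc receptor-like genes lie between -1.58 and -1.16 and the Fc gamma receptors between -0.76 and -0.13.

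The order of the genes by level differed between the groups. In wild type it ran from Fcrla (mean 179 FPKM) through Fcrl1 (100.2), Fcgr2b (97.4), Fcrl5 (26.4), Fcgr3 (14.7) and Fcgr4 (9.24) to Fcgr1 (1.56). Of these neighbours only Fcrl1 and Fcgr2b overlapped in their 2 values. In vcS5 Fcgr2b came first (89.1 FPKM), then Fcrla (72.6), Fcrl1 (38.9), Fcgr3 (8.40), Fcrl5 (8.27), Fcgr4 (6.30) and Fcgr1 (0.702). There Fcgr3, Fcrl5 and Fcgr4 overlapped one another, and Fcgr2b lay above Fcrla in both libraries.

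Set against B cell genes, Fcgr2b and the Fc receptor-like genes parted. Of 15 B cell markers 14 fell and 0 rose by limma, and the median log2 change was -1.38. With any 1 library left out 0 or 1 of the 15 were called lower. The 1 marker outside the threshold was Ebf1 (-1.38, limma adjusted p = 0.0711). FPKM is scaled to the fragments of each library. In bulk spleen, fewer B cells, less RNA per B cell and more RNA from other cells cannot be told apart. The geometric mean of the B cell markers, taken on FPKM + 1, was 206 and 245 in the wild-type libraries, against 90.7 and 82.8 in vcS5.

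Fcrl1 kept a nearly fixed ratio to that mean, 0.447 and 0.441 in the wild-type libraries, against 0.442 and 0.455 in vcS5. For Fcrla the ratio was 0.749 and 0.827 in the wild-type libraries, against 0.782 and 0.897 in vcS5. Fcrl5 had ratios of 0.133 and 0.104 against 0.107 and 0.0825. The groups overlapped for all 3 genes.

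The ratio of Fcgr2b to the B cell markers was 0.456 and 0.411 in the wild-type libraries, against 1.05 and 1.00 in vcS5. It was 2.37 times as high in vcS5, and the groups lay far apart compared with the spread inside them. Whether Fcgr2b in vcS5 came from B cells or from other cells cannot be read from bulk values. Other Fcgr2b-expressing cell types of the spleen include macrophages, monocytes and dendritic cells. Their markers had median log2 changes of -0.44 (macrophages and monocytes) and -0.49 (dendritic cells). These cell types are not a full list. Of 10 T cell markers 5 rose, led by Cd8a (log2 change 2.86), and 1 fell. The part of T cells in the Fcgr2b value was not tested.

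Set against macrophage and monocyte markers, Fcgr1 and Fcgr3 were lower in both vcS5 libraries, while the groups overlapped for Fcgr4. Set against neutrophil markers, neither Fcgr1 nor Fcgr3 was lower. Of 18 macrophage and monocyte markers 2 rose and 1 fell. Their median log2 change was -0.44 and their summed level was 805 and 585 FPKM in the wild-type libraries, against 376 and 466 in vcS5. Without Lyz2, the gene with the highest sum, the sums were 381 and 316 FPKM against 242 and 334 and the groups overlapped. The geometric means, 18.7 and 14.9 against 11.4 and 16.2, overlapped as well. The faller was Lyz2, a lysozyme gene (-1.34), and the risers were Ccr2 (1.79) and Cx3cr1 (1.42), chemokine receptor genes that T and natural killer cells also use. Csf1r, the receptor for macrophage growth factor, had 30.8 and 27.7 FPKM in the wild-type libraries, against 16.9 and 24.9 in vcS5 (limma adjusted p = 0.238).

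Relative to the geometric mean of these markers, Fcgr3 stood at 0.900 and 0.848 in the wild-type libraries, against 0.582 and 0.630 in vcS5. Fcgr1 stood at 0.0823 and 0.106 against 0.0454 and 0.0549. Both genes were lower in each vcS5 library than in each wild-type library on this scale. The marker mean includes the risers Ccr2 and Cx3cr1, which raise it in vcS5 and so lower the ratios there. The faller Lyz2 works the other way. Ratios without these genes were not taken. Fcgr4 stood at 0.626 and 0.454 against 0.488 and 0.436, and its groups overlapped. Fcgr2b gave 5.03 and 6.77 against 8.36 and 5.15, also with overlap. Relative to the geometric mean of the 13 neutrophil markers, Fcgr3 stood at 0.140 and 0.287 in the wild-type libraries, against 0.282 and 0.422 in vcS5. Fcgr1 stood at 0.0128 and 0.0358 against 0.0220 and 0.0368 on that scale. The groups overlapped for both genes. For Fcgr4 the values were 0.0973 and 0.154 against 0.237 and 0.292, higher in both vcS5 libraries. The same held for Fcgr2b, at 0.781 and 2.29 against 4.06 and 3.45. The neutrophil markers had a median log2 change of -1.48, so a gene that fell less than they did stands higher on this scale. The comparison with neutrophil markers was added after seeing the data.

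**Figure D3:**
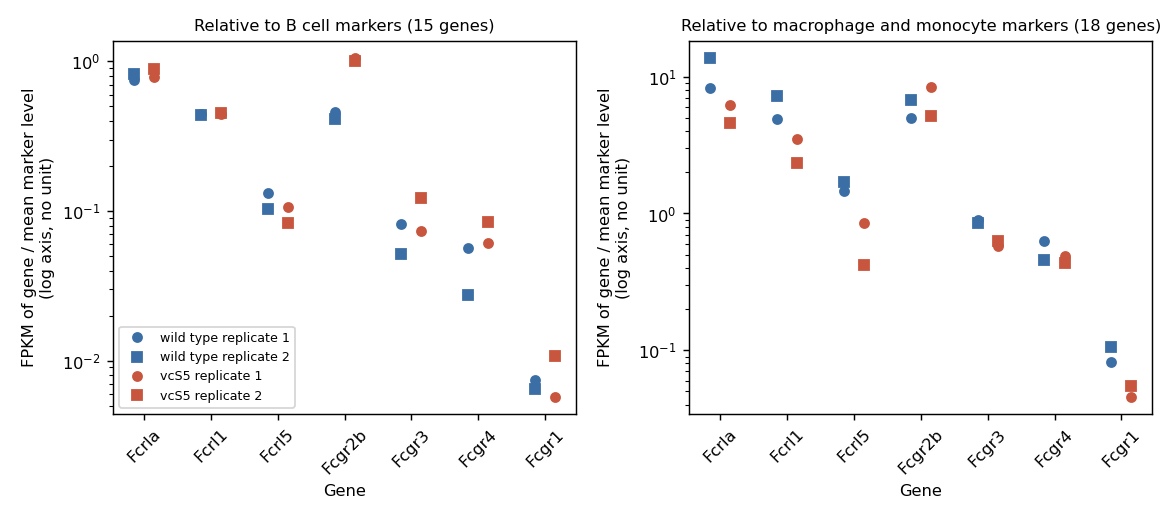
Each gene's FPKM divided by the geometric mean level of B cell markers (left) or of macrophage and monocyte markers (right), on log axes, with 1 point per library (blue wild type, red vcS5). On the left Fcrl1 stays between 0.441 and 0.455 in all libraries while Fcgr2b is near 0.4 in wild type and near 1 in vcS5.

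Natural killer cells carry Fcgr3, and their markers moved in both directions, 5 of 10 higher and 2 lower. Ncr1, which encodes an activating receptor of these cells, had 13.7 and 15.1 FPKM in the wild-type libraries, against 0.635 and 0.776 in vcS5. The other marker that fell was Cd244 (-1.08), while Nkg7 (2.38) and Eomes (2.20) rose, genes that cytotoxic T cells also express. Of the 13 neutrophil markers 1 was called lower by limma, Csf3r (-1.04), and their median log2 change was -1.48. Without wild type replicate 2 the count was 10, with any other library left out it was 0, and by the q-values in the authors' deposited table it was 13. Neutrophils also carry Fcgr3 and Fcgr4, and the part of either cell type in these values was not tested. Among 9 dendritic cell markers 1 fell, Siglech (-1.03), and the median was -0.49. Plasma cell markers had 3 of 8 lower, Irf4, Mzb1 and Tnfrsf13b. Of 10 T cell markers 5 rose, led by Cd8a (2.86), and 1 fell, Cd4 (-0.81).

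Other Fc receptors moved both ways. Of 12 listed genes 7 were measured, of which 4 fell and 1 rose, the median log2 change being -1.10. Fcgrt encodes the neonatal Fc receptor, an MHC class I-like protein that binds IgG inside endosomes and returns it to the surface (chromosome 7, 45092921 to 45120232, minus strand). It had 16.6 and 16.7 FPKM in the wild-type libraries, against 91.1 and 109 in vcS5, 6.01-fold higher (log2 change 2.51, SE 0.149, limma adjusted p = 0.00241). Fcer1g, the signalling chain of the activating receptors, had 129 and 104 FPKM in the wild-type libraries, against 48.7 and 59.5 in vcS5 (log2 change -1.10, SE 0.184, limma adjusted p = 0.0302). The IgE receptor of B cells Fcer2a (-1.34), the IgM receptor Faim3, now Fcmr (-1.38), and the IgA and IgM receptor Fcamr (-1.18) also fell, values being log2 changes. Trim21, a cytosolic IgG-binding protein, had a log2 change of 0.01 (limma adjusted p = 0.977).

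Of 14 kinases and adaptors downstream of activating receptors, 9 fell and 1 rose, the median log2 change being -1.16. Among the fallers were Syk (-1.43), Blnk (-1.41), Btk (-1.36), Lat2, Lyn, Plcg2, Fcer1g and Fgr. Syk is the kinase that docks on phosphorylated receptor chains, and several of the others serve the B cell receptor as much as Fc receptors. Pik3cd, a phosphoinositide kinase subunit of lymphocytes, rose by 0.99. Lcp2, an adaptor of T and myeloid cells, had a log2 change of 0.91 (limma adjusted p = 0.0568).

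In the inhibitory arm 10 of 12 genes were measured, of which 3 fell and 1 rose, with a median of -0.23. The fallers Siglecg (-1.34), Cd22 (-1.23) and Cd72 (-1.15) are inhibitory receptors of B cells, and the riser was Lair1 (0.79), a collagen receptor. Inpp5d, the phosphatase that Fcgr2b recruits, had 119 and 150 FPKM in the wild-type libraries, against 95.2 and 144 in vcS5, with overlapping groups (limma adjusted p = 0.714). Ptpn6, a tyrosine phosphatase of inhibitory receptors, had 825 and 1048 FPKM against 822 and 761 FPKM (limma adjusted p = 0.569).

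**Figure D4:**
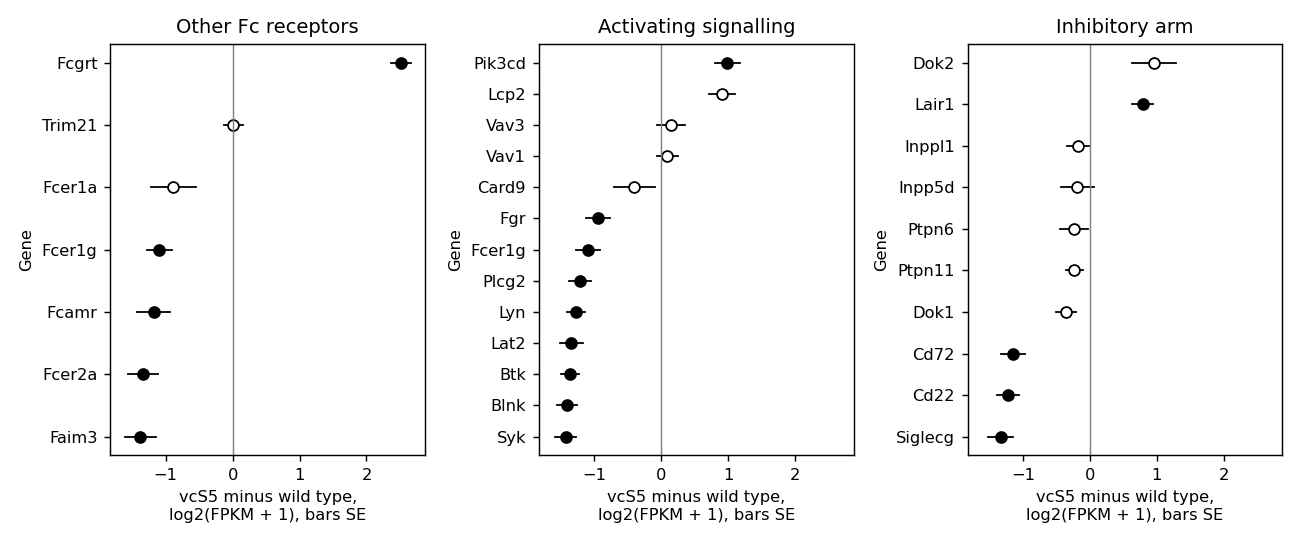
Log2 changes in vcS5 against wild type, with SE bars, for other Fc receptors (left), signalling genes of activating receptors (middle) and the inhibitory arm (right); filled points had an adjusted p under 0.05. Fcgrt stands alone on the right of its panel at 2.51, and the filled signalling genes left of 0 lie between -1.43 and -0.94. Not every listed gene is drawn.

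By Euclidean distance between centred log2 profiles over the 4 libraries, the rows most like each gene were sought among 8456 named rows. With 4 libraries this likeness is a description only. Nearest to Fcrl1 were Bank1, Pxdc1 and Cxxc5, and among the nearest to Fcrla were Lyl1 and Tnfrsf13c. Bank1 and Tnfrsf13c are B cell genes of the marker list. Nearest to Fcrl5 were Gem, Ccl3 and Scd1. Nearest to Fcgr3 were Treml4, Cd300a and Clec4n, all 3 of them receptor genes of myeloid cells, at distances of 0.134 to 0.145. Fcgr4 lay nearest to Hspa4l, App and Pglyrp1, and Fcgr1 to Slc15a3, Gypc and Tank. The log2(FPKM + 1) scale understates a change at the level of Fcgr1, so its nearest rows are alike on that scale only. Fcgr2b lay nearest to Rbm18, Fbrsl1 and Foxo1, at distances of 0.0166 to 0.0281. Among the 7 genes themselves the closest pair was Fcrl1 and Fcrla, at 0.171, and the farthest Fcgr2b and Fcrl5, at 1.47.

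The sequence before the start site is shown for 5 genes. Those of Fcgr2b and Fcgr3 are left out because there the window lies largely inside the GENCODE gene. The other windows as printed do not enter it, those of Fcrl5 and Fcgr4 having been cut to 111 and 114 bases. The deposited Fcrl1 row starts upstream of its GENCODE gene, so the Fcrl1 window lies within that row's span, and the Fcrla window overlaps the end of its row by a few bases. They are shown because 4 of the 5 hold the same short word, GAGGAA, close to the start. The share of all windows of the printed lengths that hold this word was not counted. This word is the core that the myeloid and B cell transcription factor PU.1 is known to prefer. It was chosen after the windows had been read, and capitals mark it on either strand (TTCCTC is the same word on the opposite strand). The sequences are from RefSeq, GRCm38.p6, written in the direction of the gene, at chr3:87376267-87376386 (Fcrl1, plus), chr1:170927584-170927703 (Fcrla, minus), chr3:87435662-87435772 (Fcrl5, plus), chr3:96293970-96294089 (Fcgr1, minus) and chr1:171018806-171018919 (Fcgr4, plus).
Fcrl1: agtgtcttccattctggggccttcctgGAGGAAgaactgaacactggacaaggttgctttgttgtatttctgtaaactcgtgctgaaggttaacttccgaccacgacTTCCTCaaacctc
Fcrla: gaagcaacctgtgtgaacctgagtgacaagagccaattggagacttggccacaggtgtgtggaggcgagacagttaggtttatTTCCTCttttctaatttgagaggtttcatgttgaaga
Fcrl5: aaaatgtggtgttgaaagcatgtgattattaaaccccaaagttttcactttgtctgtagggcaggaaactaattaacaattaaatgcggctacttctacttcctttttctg
Fcgr1: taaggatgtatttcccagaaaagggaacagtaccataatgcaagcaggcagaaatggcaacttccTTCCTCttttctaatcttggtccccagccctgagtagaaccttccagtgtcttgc
Fcgr4: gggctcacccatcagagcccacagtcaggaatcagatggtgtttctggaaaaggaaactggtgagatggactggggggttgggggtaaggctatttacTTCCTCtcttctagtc

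In the 250 bases before the RefSeq start, GAGGAA on either strand was found for Fcrl1, Fcrla, Fcgr1 and Fcgr4 and not for Fcrl5. Of 32851 RefSeq windows of that length 23.3% hold it. The windows of Fcgr2b and Fcgr3 were scanned too, although they lie largely inside the GENCODE gene. Fcgr2b did not hold the word. Fcgr3 held it at 6 to 1 bases before the start in 1 RefSeq entry and at 15 to 10 in another. Counted back from the RefSeq start, GAGGAA lies at 93 to 88 and at 13 to 8 bases in Fcrl1. It lies at 37 to 32 in Fcrla, at 55 to 50 in Fcgr1 and at 22 to 17 in Fcgr4. The Fcgr4 sequence as printed stops short of that start. The STAT word TTCNNNGAA was found for Fcgr1 only, at 109 to 101 bases before the start, where 7.02% of all windows hold it. The octamer word ATTTGCAT on either strand was found for 0 of the 7 genes, where 1.60% of all windows hold it. Genes that fell and genes that did not pass the test thus both held GAGGAA.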

How the data were processed

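RNA from 2 wild-type and 2 vcS5 spleen cell suspensions was sequenced as 50-base single-end reads from TruSeq RNA libraries, per the labels' protocols, a kit known not to mark strand. Bowtie2 2.1.0, TopHat2 2.0.9, Cufflinks, Cuffdiff 2.1.1 and mm10 are named in the submitters' processing notes, without settings. The authors deposited FPKM per library and per group, per the file headers, with the log2 fold change, p-value and q-value of their own comparison. Read numbers behind an FPKM value are not given in the sources used here, so no counting interval is printed.

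Values were fitted as log2(FPKM + 1) with limma 3.58.1 (R 4.3.3), variance trend, no covariate, two-sided, over all 14226 rows. A filter at a mean of 1 FPKM removed 0 rows. P-values measure the spread between 2 libraries a group, moderated by limma towards the variance trend over all rows (2 residual and 3.17 prior degrees of freedom). The script was tested on simulated data. Where a symbol had several rows, the row of highest mean was used for lists. The 7 genes, the lists and the naming rule were chosen with earlier results of these data known. That rule names all 7 genes, up to 4 called genes with values a list, and the 3 nearest rows per gene of at least 5 FPKM. One gene near Fcrla and one signalling gene are counted but not reported here. A few list genes are named beyond it, chosen after their values were seen (Trim21, Csf1r, Inpp5d, Ptpn6, Lcp2, Ebf1, Cd4, Cd244). Alternatives changed the pseudocount, filter, scaling, variance trend, replicate block and libraries. Adding rows together, ratios to neutrophil markers and a sum without Lyz2 were alternatives chosen after seeing the data. Words of 50 bases were compared with GENCODE vM21 transcripts on both strands.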

Additional observations from a re-analysis of the deposited data

How the results depend on the processing

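Each of the 7 genes was lower in vcS5 under every alternative that gave it a value. Fcrl1, Fcrl5 and Fcrla kept their calls by limma with a pseudocount of 0.1 or 0.5, no filter, a filter at a mean of 5 FPKM, median, upper quartile or quantile scaling, no variance trend and the replicate block, and Fcgr1 was not tested with that filter. With 1 library left out, 0 of the 7 genes were called by limma in each case, and log2 changes ran from -1.45 to -1.23 for Fcrl1, -1.22 to -1.11 for its second row, -1.81 to -1.36 for Fcrl5 and -1.47 to -1.08 for Fcrla. Called rows then numbered 64 to 186 higher and 23 to 89 lower, against 653 and 588, so fewer samples cost most rows their call. Fcgr1 dropped under the filter without either wild-type library. By the q-values that the authors deposited, 5 of the 7 genes were called, with Fcgr1 (-1.15) and Fcgr3 (-0.81) added, while the second Fcrl1 row (-1.28) was not called. Same-numbered libraries share only a number in the labels. With it as a replicate block 3 genes were called, with adjusted p-values by limma of 0.0307 for Fcrl1, 0.0303 for Fcrl5 and 0.0317 for Fcrla, and 579 rows rose and 449 fell. Deviations of the first-numbered libraries from their group means correlated at 0.176 across rows. Counts of called list genes moved by over 1.5 times in 21 instances and not in 179 with all libraries kept, and in 58 and not in 22 with 1 left out. No depth is known, and Fcgr1, near 1 FPKM, is the least certain value.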

Other observations

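Rows without a symbol lie beside the Fc receptor genes. One on chromosome 1, 170985173 to 170986413, between Fcgr2b and Fcgr4, lies inside the long noncoding gene Gm10522 of GENCODE vM21. It had 0.652 and 0.693 FPKM in the wild-type libraries, against 4.92 and 3.77 in vcS5 (log2 change 1.67, SE 0.207, limma adjusted p = 0.0156). This row was chosen after its values were seen. A row with the identifier of Gm2962, a processed pseudogene inside Fcrla on the same strand, had 14.2 and 12.0 FPKM in the wild-type libraries, against 3.67 and 9.78 in vcS5 (limma adjusted p = 0.214). On chromosome 3, 87394705 to 87402971, 2 further rows overlap the GENCODE gene Fcrl1 and end just past it. They had means of 3.15 ± 0.923 and 5.14 ± 5.16 FPKM in the wild-type libraries, against 1.69 ± 0.324 and 1.27 ± 0.535 in vcS5 (SD, n = 2 each). Neither passed the test (adjusted p = 0.196 and 0.358 by limma).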
